A study of Mus musculus with 3 samples.

Results

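The genes described here are 10 transcription factors of the osteoblast lineage, Runx2, Sp7, Dlx2, Dlx3, Dlx5, Msx1, Msx2, Osr1, Osr2 and Prrx2, chosen by name out of 22747 genes. The choice was made with earlier results of these data known. All 10 were found in the deposited transcript files, and 8 of them entered the comparisons. Dlx5 and Osr2 did not reach 1 FPKM (a count of fragments corrected for transcript length and for the size of the library) in any library, so their levels alone are given. Sp7 reached 1 FPKM in the BMP2 library alone, so it could enter the comparisons only through the library in which it was high.

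Polyadenylated RNA was sequenced in 3 libraries made from C2C12, a mouse myoblast line that serves as a mesenchymal precursor and can turn to muscle or to bone. The library labelled shKSRP came from cells transfected with a short hairpin RNA against KSRP, the mRNA decay factor encoded by Khsrp, and kept in growth medium with 20% fetal serum. The BMP2 library came from mock-transfected cells titled DM + BMP2, and per the protocols it was kept in 2% horse serum (differentiation medium), with recombinant BMP2 at 100 to 300 ng/ml. The mock library holds RNA of mock-transfected cells left in growth medium, with no BMP2 added. All cells are of 1 line, and medium and BMP2 changed together. The description and the transcript identifiers of the BMP2 library carry the mark 1d and do not name BMP2, and no label says what that mark means.

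With 1 library in each group, differences could not be set against a spread between replicates, and none carries a p-value. The ± after a level is the half-width of the deposited 95% interval and covers counting and assignment error alone. Ratios are on the log2(FPKM + 1) scale, where changes of low genes come out too small, and the ± after a ratio carries the half-widths of both levels. A gene was called higher or lower where that ratio reached 2-fold. Khsrp stood at 28.4 ± 0.64 FPKM in the library labelled shKSRP, 27.1 ± 0.67 FPKM in the BMP2 library and 31.4 ± 0.85 FPKM in the mock library. That is 90.6% of mock for the library labelled shKSRP and 86.5% for the BMP2 library, which had no hairpin, so the Khsrp level does not bear out the label. Of the mock value 50.5% stood on an assembled transcript, and with RefSeq transcripts alone the log2 ratio to mock turns to 0.83 for the library labelled shKSRP and 0.77 with BMP2. With equal sums of FPKM it turns to 0.20 and, with BMP2, 0.05.

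Osteoblasts arise from mesenchymal precursors under BMP signalling, which acts through receptor-activated SMAD proteins. Runx2, a runt-domain factor that pairs with Cbfb, is required for bone formation and acts upstream of Sp7, the zinc-finger factor osterix. Homeobox genes of the Dlx and Msx families respond to BMP in skeletal and tooth mesenchyme, and in C2C12 cells BMP2 is known to turn off the muscle programme and turn on that of osteoblasts.

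Of the 8 compared genes, Sp7 was called higher in the BMP2 library than in mock, none was called lower and 7 passed in neither direction. Among all 11475 compared genes 9.25% were called higher and 8.95% lower in that comparison. In the library labelled shKSRP none was called higher than mock and Dlx3 was called lower, where 11.0% of all compared genes were higher and 13.0% lower. Between the library labelled shKSRP and the BMP2 library, Sp7, Dlx2 and Dlx3 were lower and none was higher, against 8.69% lower and 6.10% higher of all compared genes.

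**Figure D1:**
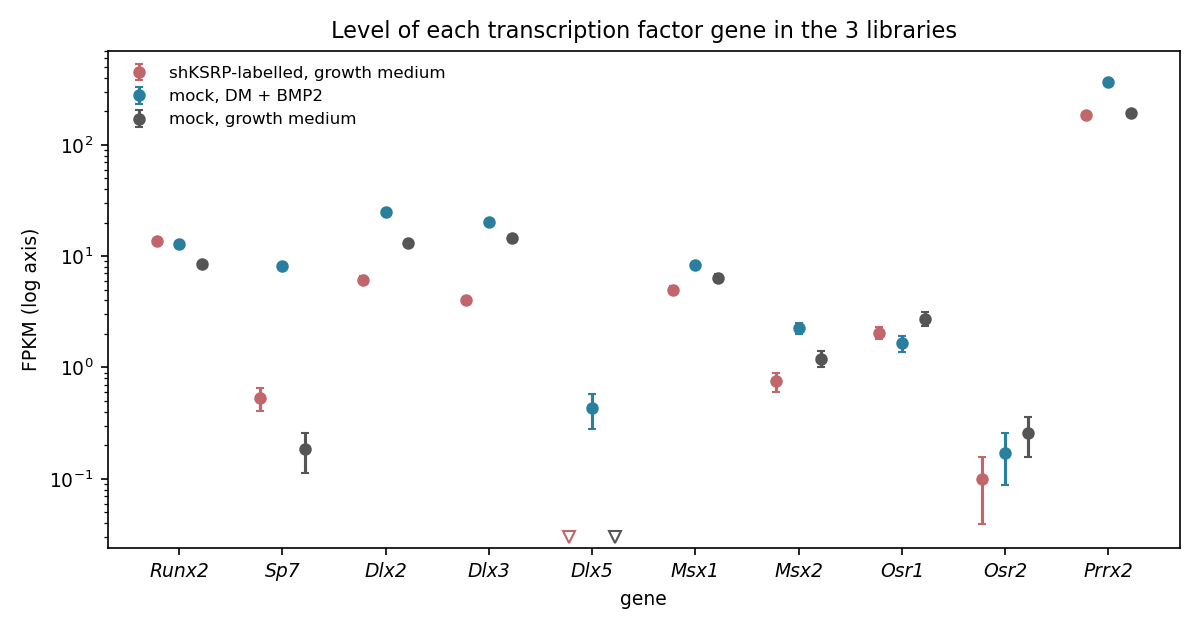
FPKM of the 10 genes (log axis) in the library labelled shKSRP, the BMP2 library and the mock library, with bars for the half-widths of the deposited intervals; open triangles at the bottom mark genes listed at 0. Prrx2 lies between 186 and 368 FPKM, above every other gene of the set, and Sp7 stands at 8.12 FPKM with BMP2 against 0.187 FPKM in mock.

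Prrx2 had the highest level of the set in each library and Dlx5 or Osr2 the lowest. In the library labelled shKSRP the order from the top was Prrx2, Runx2, Dlx2, Msx1, Dlx3, Osr1, Msx2, Sp7, Osr2 and Dlx5, and the intervals of the neighbours Msx2 and Sp7 overlapped. In the BMP2 library it was Prrx2, Dlx2, Dlx3, Runx2, Msx1, Sp7, Msx2, Osr1, Dlx5 and Osr2, with overlap between Msx1 and Sp7. In mock it was Prrx2, Dlx3, Dlx2, Runx2, Msx1, Osr1, Msx2, Osr2, Sp7 and Dlx5, with overlap between Dlx3 and Dlx2 and between Osr2 and Sp7. Dlx3 thus stood at place 5 in the library labelled shKSRP, place 3 with BMP2 and place 2 in mock.

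Runx2 (chromosome 17, 44740950 to 44951746, minus strand, mm9 build) stood at 13.6 ± 0.43 FPKM in the library labelled shKSRP, 12.8 ± 0.46 FPKM in the BMP2 library and 8.55 ± 0.34 FPKM in mock. Its log2 ratio to mock was 0.53 ± 0.071 with BMP2 and 0.61 ± 0.066 in the library labelled shKSRP, under 2-fold in both cases. The intervals of the library labelled shKSRP and the BMP2 library overlapped, and both lay above that of mock. The Runx2 level lay above 53.4% of the compared genes for the library labelled shKSRP, 50.9% with BMP2 and 41.8% in mock. With RefSeq transcripts alone the Runx2 ratio to mock was −0.02 with BMP2 and 1.06 for the library labelled shKSRP.

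Runx2 is transcribed from a distal and a proximal start, which in RefSeq lie 78149 nt apart and give proteins with different first residues. The coding sequences begin as follows, each shown for its first 120 bases, with capitals for the bases that the other form lacks and lower case for the shared part (GENCODE transcripts on GRCm38, chromosome 17, minus strand).
Runx2, distal start: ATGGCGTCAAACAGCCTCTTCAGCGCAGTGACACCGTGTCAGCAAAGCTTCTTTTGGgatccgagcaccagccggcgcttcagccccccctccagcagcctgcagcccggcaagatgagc
Runx2, proximal start: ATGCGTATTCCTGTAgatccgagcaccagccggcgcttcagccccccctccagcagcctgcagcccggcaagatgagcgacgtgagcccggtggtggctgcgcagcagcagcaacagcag
The distal form has 57 coding bases of its own and the proximal form 15, before 1527 shared ones.

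Transcripts from the distal start stood at 7.45 ± 0.32 FPKM in the library labelled shKSRP, 6.87 ± 0.35 FPKM in the BMP2 library and 5.99 ± 0.29 FPKM in mock. Transcripts from the proximal start stood at 6.17 ± 0.28 FPKM in the library labelled shKSRP, 5.88 ± 0.30 FPKM in the BMP2 library and 2.56 ± 0.18 FPKM in mock. The proximal form had a log2 ratio to mock of 1.01 ± 0.094 in the library labelled shKSRP, at the edge of the 2-fold rule, and 0.95 ± 0.098 with BMP2, inside it. The ratios of the distal form were 0.27 ± 0.081 in the library labelled shKSRP and 0.17 ± 0.087 with BMP2. The proximal form made up 45.3% of Runx2 FPKM in the library labelled shKSRP, 46.1% in the BMP2 library and 29.9% in mock. In the BMP2 library the distal form was an assembled transcript, and in mock the proximal form was an assembled transcript of 6 exons that begins 940 nt upstream of the RefSeq proximal start. It was counted as proximal because transcripts within 2000 nt of a RefSeq start were given to that start, so the division between starts depends on each library's assembly. With RefSeq transcripts alone, the proximal form is listed at 0 in mock. Over the alternatives its ratio to mock ranged from 0.56 to 2.84 in the library labelled shKSRP and from 0.53 to 2.78 with BMP2.

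**Figure D2:**
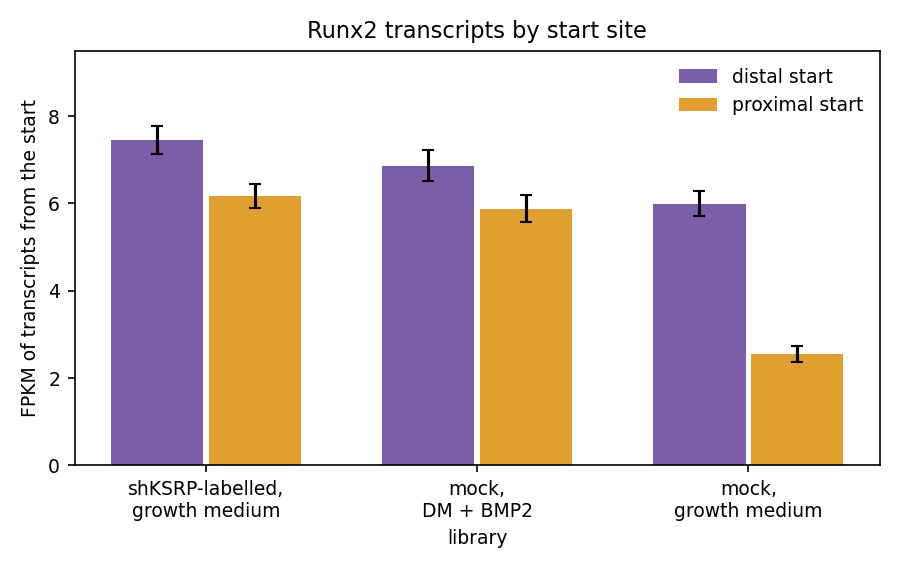
FPKM of Runx2 transcripts that begin within 2000 nt of the distal or the proximal RefSeq start, in each library (linear axis, bars from 0, error bars for the half-widths). The proximal bar is 6.17 FPKM in the library labelled shKSRP and 5.88 FPKM with BMP2, against 2.56 FPKM in mock; the distal bars lie between 5.99 and 7.45 FPKM.

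Sp7 (chromosome 15, 102187608 to 102196702, minus strand), the factor osterix without which no osteoblasts form, had 0.527 ± 0.12 FPKM in the library labelled shKSRP, 8.12 ± 0.51 FPKM in the BMP2 library and 0.187 ± 0.073 FPKM in mock. It was 43.5-fold higher by FPKM with BMP2 than in mock, with a log2 ratio of 2.94 ± 0.12. In the library labelled shKSRP its FPKM was 2.82-fold the mock value, but both levels were under 1 FPKM and the log2 ratio was 0.36 ± 0.15. Set against the BMP2 library, Sp7 of the library labelled shKSRP had a log2 ratio of −2.58 ± 0.14, called lower. Sp7 thus stood above 38.8% of the compared genes with BMP2, against 3.34% in mock.

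All Sp7 FPKM of the BMP2 library, and of the library labelled shKSRP, lay on 2 assembled transcripts, which in the BMP2 library began 689 nt upstream of the RefSeq start and had 2 or 3 exons. The form with 3 exons stood at 3.48 ± 0.34 FPKM and that with 2 exons at 4.64 ± 0.38 FPKM with BMP2. The RefSeq transcript was listed at 0 in both of these libraries and held the whole 0.187 FPKM of mock. With RefSeq transcripts alone the log2 ratio of Sp7 to mock with BMP2 turns to −0.25, and for the library labelled shKSRP to −0.25. The call between the library labelled shKSRP and the BMP2 library is then lost as well, since Sp7 is listed at 0 in both. All calls of Sp7 thus rest on counting assembled transcripts at the locus.

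**Figure D3:**
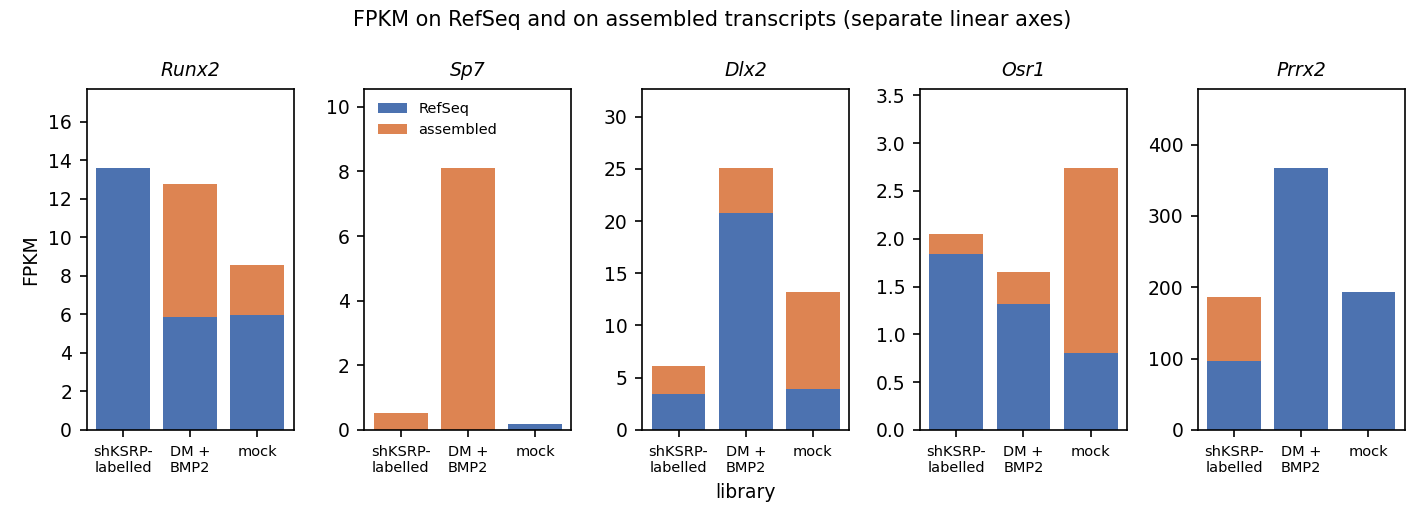
FPKM of Runx2, Sp7, Dlx2, Osr1 and Prrx2 in each library, divided into RefSeq transcripts (lower part) and assembled transcripts (upper part), on a linear axis of its own for each gene. All 8.12 FPKM of Sp7 in the BMP2 library stand on assembled transcripts, as do 70.5% of Dlx2 and of Osr1 in mock.

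The Dlx genes are distal-less homeobox factors that lie in pairs on the chromosome and act in limb, tooth and facial mesenchyme. Dlx2 (chromosome 2, 71381465 to 71384811, minus strand) stood at 6.16 ± 0.49 FPKM in the library labelled shKSRP, 25.1 ± 0.96 FPKM in the BMP2 library and 13.2 ± 0.81 FPKM in mock. Its log2 ratio to mock was 0.88 ± 0.098 with BMP2 and −0.99 ± 0.13 in the library labelled shKSRP, in both cases just inside the 2-fold line on the log2(FPKM + 1) scale. By FPKM, Dlx2 in the library labelled shKSRP was at 46.7% of mock, past 2-fold, and with a pseudocount of 0.1 its ratio there was −1.085. Between the library labelled shKSRP and the BMP2 library the ratio was −1.87 ± 0.11, called lower in the library labelled shKSRP.

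The assembled share of Dlx2 was 44.8% in the library labelled shKSRP, 17.1% with BMP2 and 70.5% in mock, where the RefSeq transcript stood at 3.89 FPKM. With RefSeq transcripts alone the ratio to mock became 2.16 with BMP2 and −0.15 in the library labelled shKSRP. With fragments summed over a fixed gene length it was 1.18 with BMP2, past the 2-fold line, and −0.82 in the library labelled shKSRP. Dlx1, its neighbour on the chromosome and a factor of the same family, stood at 1.76 ± 0.20 FPKM in the library labelled shKSRP, 5.41 ± 0.46 FPKM in the BMP2 library and 4.56 ± 0.43 FPKM in mock. Dlx1 was called lower in the library labelled shKSRP (log2 ratio −1.01) and had a ratio of 0.20 with BMP2.

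Dlx3 (chromosome 11, 94981431 to 94986605, plus strand), which acts in tooth, hair and bone formation, stood at 4.03 ± 0.30 FPKM in the library labelled shKSRP, 20.1 ± 0.72 FPKM in the BMP2 library and 14.5 ± 0.60 FPKM in mock. Dlx3 was called lower there than in both others, at 27.7% of mock (log2 ratio −1.63 ± 0.10) and 20.1% of the BMP2 library (−2.07 ± 0.10). With BMP2 the ratio to mock was 0.44 ± 0.074. All Dlx3 FPKM stood on 1 RefSeq transcript in each library, so no assembled transcript enters these values. Dlx4, its partner on the chromosome, stayed under 1 FPKM in each library, with 0.101 ± 0.058 FPKM in the library labelled shKSRP, 0.284 ± 0.10 FPKM in the BMP2 library and 0.129 ± 0.069 FPKM in mock.

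Dlx5 (chromosome 6, 6827805 to 6832068, minus strand), a BMP-induced factor that can activate Runx2 and Sp7, was at 0.429 ± 0.15 FPKM in the BMP2 library and was listed at 0 in the library labelled shKSRP and in mock. No fold against a listed 0 is given. Its neighbour Dlx6 was listed at 0 in all 3 libraries, and the antisense gene Dlx6os1 was at 0.0135 ± 0.014 FPKM in the library labelled shKSRP and listed at 0 in the others; reads of an antisense gene and its partner cannot be told apart without strand.

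Msx1 and Msx2 are muscle-segment homeobox factors that repress differentiation of precursor cells. Msx1 (chromosome 5, 38211730 to 38215824, minus strand) stood at 5.0 ± 0.40 FPKM in the library labelled shKSRP, 8.32 ± 0.54 FPKM in the BMP2 library and 6.42 ± 0.47 FPKM in mock, with log2 ratios to mock of −0.31 ± 0.13 and, with BMP2, 0.33 ± 0.12. Msx2 (chromosome 13, 53562250 to 53568149, minus strand) stood at 0.749 ± 0.14 FPKM in the library labelled shKSRP, 2.26 ± 0.27 FPKM in the BMP2 library and 1.20 ± 0.19 FPKM in mock. Its ratios to mock were −0.33 ± 0.17 in the library labelled shKSRP and 0.56 ± 0.17 with BMP2. Both genes had the BMP2 library highest and the library labelled shKSRP lowest with no overlap of intervals, and neither reached 2-fold between any of the libraries on the log2(FPKM + 1) scale. By FPKM, Msx2 in the library labelled shKSRP was at 33.2% of the BMP2 library.

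Osr1 and Osr2 are odd-skipped zinc-finger factors of limb, kidney and joint mesenchyme. Osr1 (chromosome 12, 9581248 to 9588306, plus strand) stood at 2.05 ± 0.27 FPKM in the library labelled shKSRP, 1.65 ± 0.27 FPKM in the BMP2 library and 2.74 ± 0.40 FPKM in mock. It was the 1 compared gene of the set with a ratio below 0 with BMP2 (−0.50 ± 0.21), and its ratio in the library labelled shKSRP was −0.29 ± 0.20. In mock, 1.93 FPKM stood on assembled transcripts that began 4208 and 4319 nt upstream of the RefSeq start, and with RefSeq transcripts alone both ratios turn positive, to 0.36 with BMP2 and 0.65 in the library labelled shKSRP. Osr2 (chromosome 15, 35225867 to 35233060, plus strand) stood at 0.0987 ± 0.060 FPKM in the library labelled shKSRP, 0.172 ± 0.084 FPKM in the BMP2 library and 0.256 ± 0.10 FPKM in mock, with overlapping intervals in each comparison.

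Prrx2 (chromosome 2, 30700887 to 30736767, plus strand), a paired-related homeobox factor of limb and facial mesenchyme, stood at 186 ± 4.4 FPKM in the library labelled shKSRP, 368 ± 4.9 FPKM in the BMP2 library and 193 ± 3.5 FPKM in mock. It lay above 96.2% of the compared genes in the library labelled shKSRP, 97.8% with BMP2 and 95.1% in mock. The BMP2 library held 1.90-fold the mock FPKM (log2 ratio 0.93 ± 0.032), just inside the 2-fold line, and the library labelled shKSRP had a ratio of −0.06 ± 0.043 with overlapping intervals. Prrx2 shared a Cufflinks locus with Ntmt1, an N-terminal methyltransferase gene upstream of it, in the BMP2 library. Ntmt1 stood at 23.5 ± 1.3 FPKM in the library labelled shKSRP and 44.6 ± 1.6 FPKM in mock and was listed at 0 in the BMP2 library. Summed over both genes as FPKM times length in kb, the BMP2 library held 1.52-fold the mock value. Whether fragments of Ntmt1 were assigned to Prrx2 was not tested.

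In the library labelled shKSRP, 48.2% of Prrx2 FPKM stood on an assembled transcript of 755 nt that lacks the RefSeq start, and with RefSeq transcripts alone the ratio to mock was −1.0. With fragments summed over a fixed gene length the ratio to mock was −0.31. With the sums of FPKM made equal, or with the trend over transcript length taken out, it turned positive, at 0.29 and 0.40. Prrx1, the related gene on another chromosome, was called higher in both libraries, with 84.5 ± 1.3 FPKM in the library labelled shKSRP, 78.1 ± 1.3 FPKM in the BMP2 library and 37.8 ± 0.96 FPKM in mock (log2 ratios to mock 1.14 and, with BMP2, 1.03).

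**Figure D4:**
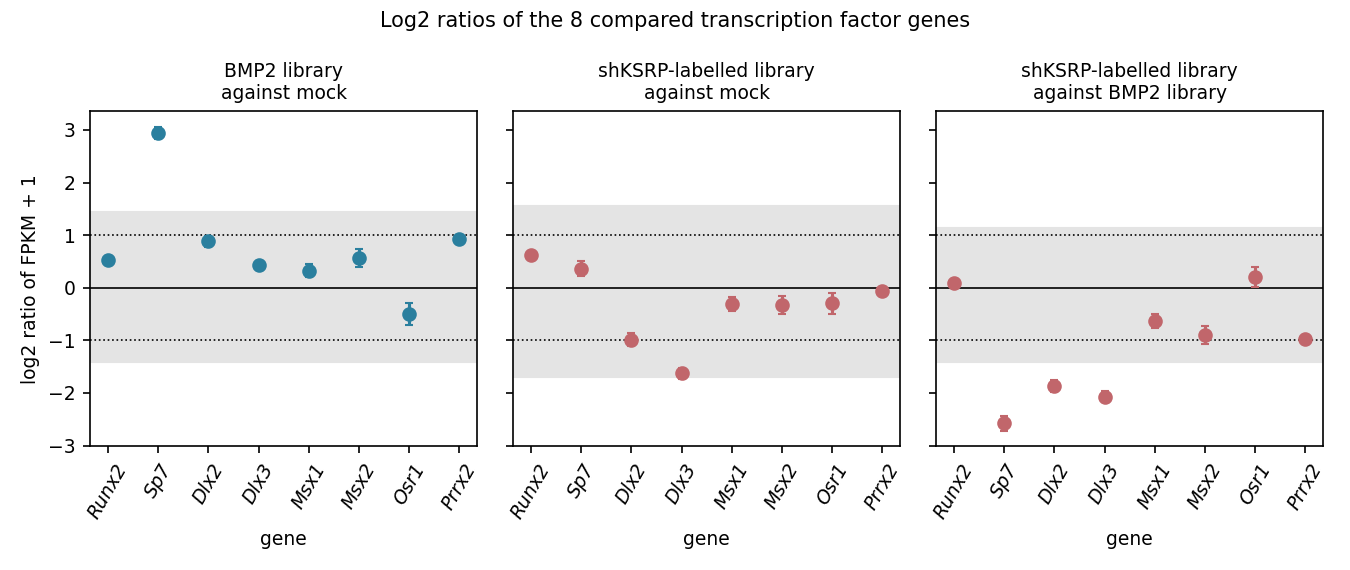
Log2 ratios of FPKM + 1 for the 8 compared genes in the 3 comparisons, with error bars that carry the half-widths of both levels; grey bands hold the 5th to the 95th percentile of the 11475 compared genes and dotted lines mark 2-fold. Sp7 stands at 2.94 with BMP2, and Dlx3 at −1.63 and Dlx2 at −0.99 in the library labelled shKSRP.

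Over the 8 compared genes, which include Sp7 through the BMP2 library alone, the median log2 ratio was 0.54 with BMP2, with 7 ratios above 0 and 1 below, where all compared genes had a median of 0.03 and 52.2% above 0. In the library labelled shKSRP the median was −0.30, with 2 above 0 and 6 below, where all compared genes had −0.02 and 50.9% below 0. Between the library labelled shKSRP and the BMP2 library the median was −0.94, with 2 above 0 and 6 below, where all compared genes had −0.02 and 51.3% below 0. Intervals were apart for 8, 7 and 6 of the 8 genes in these comparisons, but also for 81.3%, 85.3% and 79.2% of all compared genes, so separation of intervals sets no gene apart here. Both comparisons with mock share the mock library. The genes of the set were chosen with earlier results of these data known, so its counts and medians are no support. Making the sum of FPKM equal in all libraries shifts the median of all genes to 0.26 with BMP2 and 0.28 in the library labelled shKSRP. It changes the calls of all compared genes to 13.9% higher and 6.53% lower with BMP2 and to 18.2% higher and 8.54% lower in the library labelled shKSRP. For the 8 genes the median in the library labelled shKSRP then is −0.03, with 3 ratios above 0 and 5 below, and with the length trend removed it is −0.11, with the same split. Dlx2 and Prrx2 pass 2-fold with BMP2 under equal sums, at 1.13 and 1.19.

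The RefSeq promoter table on GRCm38.p6 had entries for 5 of the 10 genes. For Runx2, Msx2 and Prrx2 the 250 bases before the start given there lie partly or wholly within an exon of a GENCODE transcript, so they are not used here. The stretch of Dlx2 is shown because this gene was called lower in the library labelled shKSRP than in the BMP2 library, a choice made after its values were seen. Capitals mark a match, on either strand, to GGCGCC (a GC-rich SMAD element), TGTGGT (RUNX), TAATTA (homeodomain core) or CAGCTG (E-box).
Dlx2, chr2:71546755-71547004, minus strand: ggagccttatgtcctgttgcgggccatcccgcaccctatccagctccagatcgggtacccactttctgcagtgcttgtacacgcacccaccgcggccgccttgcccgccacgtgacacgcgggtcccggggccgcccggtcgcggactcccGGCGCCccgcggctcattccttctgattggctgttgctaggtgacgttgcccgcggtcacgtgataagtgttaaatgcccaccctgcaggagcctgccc
It held 1 match, to GGCGCC, 99 nt before the start, and the stretch of Msx1 held none. Over all 32851 promoter stretches of this length in the table, 9.59% held GGCGCC, 14.1% TGTGGT, 4.84% TAATTA and 13.0% CAGCTG. The GC content was 66.4% for Dlx2 and 68.0% for Msx1, against a median of 52.4%.

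Genes that act with these factors are described from lists chosen with earlier results of these data known. Of 16 compared target genes of Runx2 and Sp7, 8 were higher and 1 lower with BMP2, with a median log2 ratio of 1.03, and 3 were higher and 3 lower in the library labelled shKSRP, with a median of 0.01. Among all compared genes 9.25% were higher and 8.95% lower with BMP2, and 11.0% higher and 13.0% lower in the library labelled shKSRP. Of the 8 targets higher with BMP2, Alpl, Col10a1 and Pth1r reached 1 FPKM in the BMP2 library alone and could enter the list's count only through it, so count and median are no support. Alpl, the alkaline phosphatase of bone, had 0.447 ± 0.10 FPKM in the library labelled shKSRP, 12.8 ± 0.82 FPKM in the BMP2 library and 0.0518 ± 0.037 FPKM in mock, an order like that of Sp7. Col10a1, a collagen of hypertrophic cartilage, had 0.420 ± 0.089 FPKM in the library labelled shKSRP, 6.64 ± 0.37 FPKM in the BMP2 library and 0.441 ± 0.095 FPKM in mock. Both were called higher with BMP2, and neither was called in the library labelled shKSRP. Col1a1 and Col1a2, the chains of type I collagen, were called higher in both: Col1a1 had 15.7 ± 0.49 FPKM in the library labelled shKSRP, 31.9 ± 0.87 FPKM in the BMP2 library and 2.88 ± 0.23 FPKM in mock, and Col1a2 had 431 ± 2.7 FPKM in the library labelled shKSRP, 813 ± 4.8 FPKM in the BMP2 library and 209 ± 1.6 FPKM in mock. Sparc, the matrix protein osteonectin, was also called higher in both, with 1904 ± 8.8 FPKM in the library labelled shKSRP, 1857 ± 8.2 FPKM in the BMP2 library and 691 ± 4.4 FPKM in mock. Ibsp, the gene of bone sialoprotein, was listed at 0 in all 3 libraries, and Mmp13, collagenase 3, stayed under 1 FPKM in each.

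The osteocalcin genes Bglap and Bglap2, whose reads can be divided between near-identical copies at a shared locus, were called lower in the library labelled shKSRP, as Dlx3 was. Bglap had 1.21 ± 0.47 FPKM in the library labelled shKSRP, 13.3 ± 1.6 FPKM in the BMP2 library and 7.34 ± 1.2 FPKM in mock. Bglap2 had 4.29 ± 1.00 FPKM in the library labelled shKSRP, 43.0 ± 3.0 FPKM in the BMP2 library and 23.2 ± 2.2 FPKM in mock. Spp1, the gene of osteopontin, was called lower in both comparisons with mock, with 383 ± 4.1 FPKM in the library labelled shKSRP, 471 ± 4.8 FPKM in the BMP2 library and 987 ± 6.9 FPKM in mock.

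Of 25 compared partners, repressors and regulators of Runx2 and Sp7, 6 were higher and 1 lower with BMP2 and 7 were higher and 3 lower in the library labelled shKSRP, where 1 and 2 of the calls involve a gene listed at 0. Among all compared genes 9.25% were higher and 8.95% lower with BMP2, and 11.0% higher and 13.0% lower in the library labelled shKSRP. Cbfb, the subunit that Runx2 needs to bind DNA well, had 37.4 ± 1.0 FPKM in the library labelled shKSRP, 35.5 ± 1.1 FPKM in the BMP2 library and 36.1 ± 1.1 FPKM in mock and log2 ratios to mock of 0.05 and, with BMP2, −0.02. Hey1, a Notch and BMP target that represses Runx2, was called higher with BMP2, with 7.38 ± 0.45 FPKM in the library labelled shKSRP, 51.4 ± 1.6 FPKM in the BMP2 library and 6.05 ± 0.55 FPKM in mock. Twist2, which binds Runx2 and holds it inactive, was called lower in the library labelled shKSRP, with 8.22 ± 0.63 FPKM in the library labelled shKSRP, 14.7 ± 0.90 FPKM in the BMP2 library and 26.5 ± 1.4 FPKM in mock. Sox9, the chondrocyte factor that can repress Runx2, was called lower there too, with 6.23 ± 0.29 FPKM in the library labelled shKSRP, 18.1 ± 0.53 FPKM in the BMP2 library and 13.7 ± 0.46 FPKM in mock. Maf, a leucine-zipper partner of Runx2, was called higher in the library labelled shKSRP and, at a log2 ratio of 1.00, at the edge of the rule with BMP2; it had 24.6 ± 0.63 FPKM in the library labelled shKSRP, 3.76 ± 0.26 FPKM in the BMP2 library and 1.38 ± 0.16 FPKM in mock. The Wnt effector Tcf7 was called higher in both, with 20.2 ± 0.90 FPKM in the library labelled shKSRP, 32.1 ± 1.1 FPKM in the BMP2 library and 3.8 ± 0.38 FPKM in mock, and its relative Lef1 in the library labelled shKSRP, with 7.96 ± 0.53 FPKM in the library labelled shKSRP, 3.24 ± 0.24 FPKM in the BMP2 library and 1.14 ± 0.15 FPKM in mock. Nfatc1, a calcineurin-dependent partner of Sp7, was called higher in both, with 8.13 ± 0.40 FPKM in the library labelled shKSRP, 10.2 ± 0.44 FPKM in the BMP2 library and 2.76 ± 0.20 FPKM in mock. Runx3, a relative of Runx2, was called lower with BMP2 at a log2 ratio of −1.02, with 7.98 ± 0.34 FPKM in the library labelled shKSRP, 4.71 ± 0.34 FPKM in the BMP2 library and 10.6 ± 0.43 FPKM in mock.

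Among 9 compared relatives with a homeobox, 2 were higher and none lower with BMP2, where 9.25% of all compared genes were higher and 8.95% lower. In the library labelled shKSRP 4 were higher and 2 lower, where 11.0% of all were higher and 13.0% lower. Hoxa10, which shares its locus and was listed at 0 in mock, makes 1 of the calls in each comparison. Six4, a homeobox factor of muscle precursors, was called higher in the library labelled shKSRP, with 3.97 ± 0.24 FPKM in the library labelled shKSRP, 1.4 ± 0.15 FPKM in the BMP2 library and 1.08 ± 0.13 FPKM in mock. Hoxc8 was called lower there, with 0.481 ± 0.13 FPKM in the library labelled shKSRP, 2.74 ± 0.32 FPKM in the BMP2 library and 2.25 ± 0.28 FPKM in mock.

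Of 11 compared genes of the early BMP response, 6 were higher and none lower with BMP2, with a median log2 ratio of 1.23. Among all compared genes 9.25% were higher and 8.95% lower with BMP2. In the library labelled shKSRP 1 of the 11 was higher and 2 were lower, where 11.0% of all were higher and 13.0% lower. Bambi, a decoy receptor that inhibits the pathway, is 1 of the 6 and sets that median, and it reached 1 FPKM in the BMP2 library alone, with 0.0992 ± 0.034 FPKM in the library labelled shKSRP, 2.24 ± 0.17 FPKM in the BMP2 library and 0.377 ± 0.069 FPKM in mock. The inhibitory SMADs were called higher with BMP2: Smad6 had 18.1 ± 1.1 FPKM in the library labelled shKSRP, 102 ± 2.5 FPKM in the BMP2 library and 13.2 ± 0.54 FPKM in mock, and Smad7 had 8.04 ± 0.32 FPKM in the library labelled shKSRP, 27.9 ± 0.64 FPKM in the BMP2 library and 4.97 ± 0.32 FPKM in mock. Id1, a direct BMP target that blocks muscle differentiation factors, had 104 ± 2.8 FPKM in the library labelled shKSRP, 212 ± 4.2 FPKM in the BMP2 library and 289 ± 4.9 FPKM in mock, with a log2 ratio to mock of −1.47 in the library labelled shKSRP and −0.44 with BMP2. Its relative Id2, also called lower in the library labelled shKSRP, had 33.3 ± 1.3 FPKM in the library labelled shKSRP, 106 ± 2.4 FPKM in the BMP2 library and 76.3 ± 2.4 FPKM in mock. Against the BMP2 library, 9 of the 11 were lower and none higher in the library labelled shKSRP, where 8.69% of all compared genes were lower and 6.10% higher. This list was chosen with earlier results of these data known, so its counts and median are no support.

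Of 31 other compared mesenchymal factors, 4 were higher and 2 lower with BMP2, where 9.25% of all compared genes were higher and 8.95% lower. In the library labelled shKSRP 6 were higher and 7 lower, where 11.0% of all were higher and 13.0% lower. Sox4, an SRY-related factor, and Hif1a, the oxygen-regulated factor, were called higher in both. Sox4 had 64.7 ± 0.85 FPKM in the library labelled shKSRP, 19.4 ± 0.63 FPKM in the BMP2 library and 6.86 ± 0.40 FPKM in mock, and Hif1a had 51.5 ± 1.1 FPKM in the library labelled shKSRP, 46.0 ± 1.2 FPKM in the BMP2 library and 21.4 ± 0.64 FPKM in mock. Snai2, a repressor of epithelial genes, and Tbx3, a T-box factor, were called higher with BMP2. Snai2 had 39.0 ± 1.1 FPKM in the library labelled shKSRP, 106 ± 1.9 FPKM in the BMP2 library and 24.8 ± 0.90 FPKM in mock, and Tbx3 had 3.45 ± 0.24 FPKM in the library labelled shKSRP, 6.23 ± 0.33 FPKM in the BMP2 library and 1.31 ± 0.15 FPKM in mock. Zeb1, another repressor of epithelial genes, and Tbx2 were called higher in the library labelled shKSRP. Zeb1 had 21.9 ± 0.49 FPKM in the library labelled shKSRP, 7.50 ± 0.35 FPKM in the BMP2 library and 5.87 ± 0.27 FPKM in mock, and Tbx2, which reached 1 FPKM in that library alone, had 2.74 ± 0.21 FPKM in the library labelled shKSRP, 0.792 ± 0.12 FPKM in the BMP2 library and 0.210 ± 0.061 FPKM in mock. The vitamin D receptor gene Vdr and the SRY-related Sox11 were called lower there. Vdr had 4.71 ± 0.25 FPKM in the library labelled shKSRP, 23.2 ± 0.69 FPKM in the BMP2 library and 16.4 ± 0.49 FPKM in mock, and Sox11 had 1.08 ± 0.085 FPKM in the library labelled shKSRP, 2.46 ± 0.14 FPKM in the BMP2 library and 4.05 ± 0.17 FPKM in mock. Klf5, a zinc-finger factor, was called lower with BMP2, with 10.4 ± 0.41 FPKM in the library labelled shKSRP, 3.53 ± 0.26 FPKM in the BMP2 library and 10.5 ± 0.57 FPKM in mock. Fosl1, an AP-1 subunit, was counted as lower in both, but its mock value carried a half-width larger than itself (99.0 ± 124 FPKM).

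**Figure D5:**
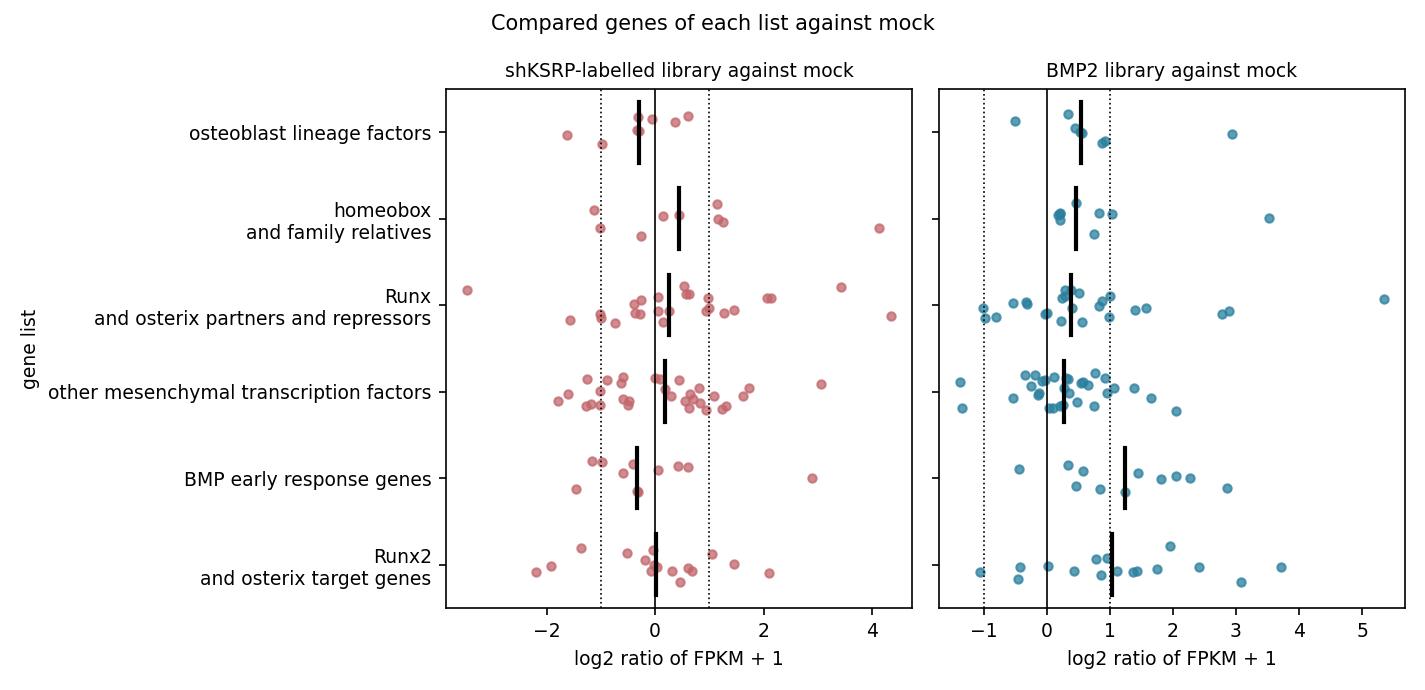
Log2 ratios of FPKM + 1 to mock for the compared genes of 6 lists, in the library labelled shKSRP (left) and the BMP2 library (right); each point is a gene, black bars mark list medians and dotted lines 2-fold. With BMP2 the medians are 0.54 for the osteoblast lineage factors, 1.23 for early BMP response genes and 1.03 for target genes of Runx2 and Sp7.

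The genes nearest to each factor were sought among 9281 genes above 0 in all libraries by the distance between their log2 ratios to mock, which rests on 3 libraries and is a description. The nearest to Sp7 were Smad6 (distance 0.10) and Hey1 (0.12). These distances were taken with a pseudocount of 1, which shrinks the ratio of Sp7 most. By FPKM Sp7 with BMP2 was 43.5-fold its mock value, while Smad6 stood at 102 against 13.2 FPKM and Hey1 at 51.4 against 6.05 FPKM. With a pseudocount of 0.1 the Sp7 ratio to mock with BMP2 was 4.84, and distances at that setting were not computed. Those nearest to Dlx3 were Vdr (0.035) and Tafa5 (0.036), and those nearest to Dlx2 were Snx18 (0.069) and Penk (0.083). Runx2 lay nearest to Zfp46 (0.0093) and Dact3 (0.016). The distances are below or near the half-widths of the factors' own ratios to mock, which for Runx2 were 0.071 with BMP2 and 0.066 in the library labelled shKSRP. Which gene lies nearest is thus not resolved. The genes nearest to Msx1, Msx2, Osr1 and Prrx2 are not reported here.

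Myoblast markers fit the cell line, with 6 of 6 at 1 FPKM or more in the library labelled shKSRP and 5 of 6 in the other libraries. Their summed FPKM was 308 in the library labelled shKSRP, 261 with BMP2 and 366 in mock. Over these 6 markers the median log2 ratio to mock in the library labelled shKSRP was −0.06, with 2 called higher and none lower. Des (−0.60), Myog (−0.49) and Cdh15 (−0.29) had negative ratios there, and Myod1 had 0.18. The precursor markers Myf5 and Pax7 were called higher in the library labelled shKSRP, with 48.4 ± 1.2 FPKM in the library labelled shKSRP, 9.09 ± 0.54 FPKM in the BMP2 library and 7.75 ± 0.50 FPKM in mock for Myf5 and 2.90 ± 0.20 FPKM in the library labelled shKSRP, 0.463 ± 0.075 FPKM in the BMP2 library and 0.118 ± 0.042 FPKM in mock for Pax7, which reached 1 FPKM in that library alone, and the muscle cadherin Cdh15 was called lower with BMP2, with 31.1 ± 0.88 FPKM in the library labelled shKSRP, 5.02 ± 0.34 FPKM in the BMP2 library and 38.3 ± 0.93 FPKM in mock. Of the chondrocyte markers, 1 of 6 stood at 1 FPKM or more in the library labelled shKSRP and 2 of 6 did so with BMP2 and in mock. Col2a1 was called higher with BMP2, as Sp7 was, while Sox9 had a log2 ratio of 0.38 and the other 4 stayed under 1 FPKM in each library. In the library labelled shKSRP, Col2a1 (log2 ratio to mock −2.91) and Sox9 (−1.03) were called lower, where Sp7 was not called. The summed FPKM of the chondrocyte markers was 6.50 in the library labelled shKSRP, 87.2 in the BMP2 library and 20.9 in mock. Most of the BMP2 sum was Col2a1, which had 0.0556 ± 0.025 FPKM in the library labelled shKSRP, 68.8 ± 1.2 FPKM in the BMP2 library and 6.95 ± 0.36 FPKM in mock, while Acan was listed at 0 in the library labelled shKSRP and in mock and was under 1 FPKM with BMP2. Adipocyte markers summed to 16.1, 30.8 and 25.7 FPKM in the same order of libraries, tenocyte markers to 62.5, 80.1 and 88.3 FPKM, nearly all Scx, and markers of endothelium and blood to 4.69, 11.8 and 9.97 FPKM, nearly all Cd34. Epithelial markers, nearly all Krt14 at a shared locus, summed to 18.5, 264 and 114 FPKM, and neural and glial ones, nearly all Tubb3 at a shared locus, to 9.84, 92.8 and 98.3 FPKM, with Epcam and Sox10 listed at 0 in every library. The part of other cell types in the values of the transcription factors was not tested, and in bulk RNA fewer cells of a type and less RNA per cell cannot be told apart.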

How the data were processed

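The series holds 1 RNA-seq library of poly(A) RNA per group, 3 in all, from C2C12 cells. Per the labels' protocols, the gel cut was 250 ± 25 bp and PCR ran for 18 cycles; no molecular identifiers are named, so intervals cover counting and assignment error only. The submitters' processing notes list the build mm9 with Cufflinks 1.3.0, TopHat 1.4.1, Bowtie 0.12.7 and CASAVA 1.8. Settings and strandedness: not given in the sources used here. The authors' files give FPKM with a 95% interval for each RefSeq and each assembled transcript, and a Cufflinks score, deposited but not used in any comparison.

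RefSeq accessions took symbols from a GRCm38.p6 table, then GENCODE, then the file's own name, which gave 22747 genes. Gene FPKM summed the RefSeq and assembled transcripts of a locus; where a locus held several genes, exon overlap decided which gene received an assembled transcript. The half-width is the root of the summed squared half-widths of the transcripts, taken as independent. Genes at 1 FPKM or more in at least 1 library, with a RefSeq transcript of at least 300 nt, were compared (11475 genes, of which 771 were listed at 0 in at least 1 library). A listed 0 can be a failed estimate. Interval widths correspond to 68.7 M (mega) fragments in the library labelled shKSRP, 60.7 M in the BMP2 library and 62.5 M in mock.

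The log2 ratios use a pseudocount of 1, with a fixed rule of 2-fold and no test. Members, lists and alternatives were chosen with earlier results of these data known. Named genes are, of each list and comparison with mock, the 3 with the largest rise and the 3 with the largest fall past 2-fold and above 0 in both libraries, and chromosomal neighbours of the members; some genes that this rule names are not reported here. Others (Cbfb, Ibsp, Mmp13, Bambi, Hif1a, Pth1r) were chosen after their values were seen, as was Ntmt1, which lies upstream of Prrx2 with Asb6 between them. The calculation, in Python 3.11.15, was tested on simulated data. Sequences are from RefSeq (GRCm38.p6) and GENCODE transcripts (GRCm38); coordinates of genes are those of the deposited files in mm9, 1-based.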

Additional observations from a re-analysis of the deposited data

How the results depend on the processing

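Each group holds 1 library, so no replicate could be left out; depth limits precision most for Dlx5, Osr2 and the mock value of Sp7. No paired analysis was possible because the groups share no pair of replicates. Of 12 alternatives, 9 were counted as able to change a ratio (the 2 size rules and the lifted filter cannot, and a Runx2 start was run in 5). But 1 of the 9, which keeps assembled transcripts only where they overlap an exon, could change none here, since all assembled transcripts of these genes overlap one. The 9 gave 258 values of single genes, of which 102 moved beyond the error of the main value and 19 had the other sign, in Khsrp, Osr1, Prrx2, Runx2 and Sp7. The 258 include the fixed values of that alternative. Of the 19, 2 belonged to a ratio past 2-fold, Sp7 with BMP2 against mock, at −0.25 both when RefSeq transcripts alone were summed and when just the most abundant of them was kept. For BMP2 against mock, 1 gene was higher in the main setting. The count was 2 with fragments over a fixed gene length (Sp7, Dlx2) and 2 with the length trend removed (Sp7, Prrx2), where 8.56% and 8.43% of all compared genes were higher. It was 3 with equal sums of FPKM and 3 with a 1.5-fold rule (both Sp7, Dlx2, Prrx2), where 13.9% and 19.5% of all were higher. With RefSeq transcripts alone it stayed 1, where 13.2% of all were higher, but the gene was Dlx2. For the library labelled shKSRP against mock, the count higher, 0 in the main setting, was 1 with RefSeq transcripts alone (Runx2), 1 with a pseudocount of 0.1 (Sp7) and 1 with a 1.5-fold rule (Runx2). In these settings 16.4%, 14.3% and 21.5% of all compared genes were higher. The count lower, 1 in the main setting, was 2 with a pseudocount of 0.1 and 2 with a 1.5-fold rule (both Dlx2, Dlx3), where 15.8% and 24.2% of all were lower. Between the library labelled shKSRP and the BMP2 library, the count higher, 0 in the main setting, was 1 with RefSeq transcripts alone (Runx2), where 10.1% of all were higher. The count lower, 3 in the main setting, was 6 with a 1.5-fold rule, 4 with fragments over a fixed gene length (Prrx2 added) and 4 with a pseudocount of 0.1 (Msx2 added). In these settings 17.6%, 7.67% and 11.2% of all were lower. With RefSeq transcripts alone the count lower stayed 3, where 9.36% of all were lower, but Prrx2 took the place of Sp7, which is listed at 0 in both. Dlx3, with all its FPKM on 1 RefSeq transcript, could move only with the pseudocounts, equal sums of FPKM, a median ratio set to 0 or the length trend removed. In those alternatives its ratio to mock in the library labelled shKSRP stayed negative, from −1.83 to −1.11. The others could not change its value. Runx2 with BMP2 ranged from −0.02 to 0.77. Causes of these shifts were not tested beyond the construction of each alternative.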
